A study of Mus musculus with 235 samples.

Results

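The genes described are Mertk, Axl and Tyro3, which encode the 3 receptors of the TAM family, their bridging ligands Gas6 and Pros1, and 2 further engulfment receptors, Megf10 and Lrp1. They were chosen by symbol from the deposited count table and all 7 were found among its 27998 genes. Tissue punched from 8 brain regions of male C57Bl/6 mice aged 3 months was analysed, and the regions are named as in the labels, PFC, AMY, CER and PVN besides dCA1, vCA1, dDG and vDG. The synthetic glucocorticoid dexamethasone was injected into the peritoneum of 15 mice at 10 mg per kg, and 15 others received 0.9% saline as vehicle. RNA was taken 4 h later. The labels name no mutation or transgene, and 1 protocol text, with perfusion of the brain before it was frozen, covers both arms. Libraries from 3' ends of transcripts numbered 15 per arm in AMY, CER, dDG and vDG. PFC had 15 vehicle and 14 dexamethasone libraries, PVN and vCA1 14 and 15, and dCA1 15 and 13.

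TAM receptors are receptor tyrosine kinases that do not bind a dying cell directly. Gas6 and protein S, the product of Pros1, bind phosphatidylserine exposed on the surface of dying cells or synapses with one end and the receptor with the other. In brain, Mertk is known mainly from microglia, macrophages and astrocytes, Axl from glia and vascular cells, and Tyro3 mainly from neurons. Megf10 is an astrocyte receptor for synapse and debris removal, and Lrp1 is a large endocytic receptor of neurons, glia and vascular cells that takes up apolipoprotein E and many other ligands. All 7 are measured here as transcripts in whole tissue, in which fewer cells of a type and less RNA per cell cannot be told apart.

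Mertk (ENSMUSG00000014361) lies on chromosome 2 from 128698956 to 128802894 on the plus strand, and Tyro3 (ENSMUSG00000027298) on chromosome 2 from 119797733 to 119818104 on the plus strand. Axl (ENSMUSG00000002602) lies on chromosome 7 from 25757273 to 25788705 on the minus strand. Gas6 (ENSMUSG00000031451) is on chromosome 8 from 13465374 to 13494535 (minus), and Pros1 (ENSMUSG00000022912) on chromosome 16 from 62854307 to 62929346 (plus). Lrp1 (ENSMUSG00000040249) lies on chromosome 10 from 127538161 to 127621148 (minus). The identifier of Megf10 is ENSMUSG00000024593. These coordinates are those of the count table, on mm10 per the submitters' processing notes, and run from the first to the last exon base. Of the exon bases of the 7 genes, 0 were shared with another gene in the table.

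The bases just before the transcription start of Mertk and Tyro3, the members that passed the test below, are shown because a treatment through a nuclear receptor invites a look at them. They are the 250 bases before the RefSeq start on GRCm38.p6, chr2:128698665-128698914 (plus strand) for Mertk and chr2:119799264-119799513 (plus strand) for Tyro3, with each GC box (GGGCGG on either strand) in capitals.
Mertk: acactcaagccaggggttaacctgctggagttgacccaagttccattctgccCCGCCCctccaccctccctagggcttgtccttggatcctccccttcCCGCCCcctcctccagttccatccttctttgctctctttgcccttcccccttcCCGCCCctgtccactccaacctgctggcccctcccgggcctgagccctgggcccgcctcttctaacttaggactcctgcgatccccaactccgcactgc
Tyro3: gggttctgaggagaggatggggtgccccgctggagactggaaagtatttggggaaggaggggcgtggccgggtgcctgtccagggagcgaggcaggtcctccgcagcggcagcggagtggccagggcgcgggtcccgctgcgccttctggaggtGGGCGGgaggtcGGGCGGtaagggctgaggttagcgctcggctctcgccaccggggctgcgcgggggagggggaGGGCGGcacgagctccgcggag
Each window held 3 GC boxes, and 32.7% of 32851 windows of the same length in the RefSeq table held at least 1. G and C made up 63.6% of the Mertk window and 73.2% of the Tyro3 window, against a median of 52.4% over all windows. In GENCODE M21, 128 bases of the Tyro3 window lie in exons of Tyro3 and 0 in an annotated untranslated region, and the Mertk window touches 0 exon bases. The glucocorticoid response element was searched on both strands as the half-site AGAACA, as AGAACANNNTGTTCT and as the looser GNACANNNTGTNC, in which N is any base. The half-site occurred in 16.1% of all windows, the full form in 0.00913% and the looser form in 0.387%. None of the 3 forms occurred in the windows of the 6 members in the table (Mertk, Tyro3, Axl, Gas6, Pros1 and Lrp1). A direct repeat with 4 spacer bases, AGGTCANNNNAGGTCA or the looser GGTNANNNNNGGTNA, was also found in 0 of the 6 windows, against 0.0152% and 0.621% of all windows. These matches describe letters in a short window and not binding.

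Library totals ran from 268538 to 1451422 counts. Per library, Mertk had 10 to 181 counts with a median of 69, Tyro3 3 to 147 (34), Axl 8 to 79 (33), Gas6 12 to 120 (43), Pros1 0 to 32 (11), Megf10 2 to 33 (14) and Lrp1 38 to 253 (112). The counting error of a single library is therefore widest for Pros1 and Megf10. Levels are given as CPM, counts scaled to library totals by TMM factors. The treatment check held in every region: Fkbp5, a chaperone gene induced by the glucocorticoid receptor, rose by log2 fold changes of 1.65 to 2.79, and Tsc22d3 and Sgk1, further targets of that receptor, rose in 8 of 8 regions. Marker genes went against some labels. Cerebellar granule cells express Gabra6, yet in CER all 15 vehicle libraries were at 0 counts for it and the 15 dexamethasone libraries held 11 in sum. Outside CER, 7 libraries held at least 10 Gabra6 counts: 3 vehicle and 2 dexamethasone libraries of vDG, 1 vehicle library of vCA1 and 1 dexamethasone library of PFC. The vDG arms held 419 and 334 Gabra6 counts in sum and vCA1 vehicle 187, and Cbln3, another granule cell gene, stood at 686, 569 and 324 there. Without these 7 libraries, an alternative chosen after seeing the data, the same 9 tests of members passed as below. The dentate level, a mean log2(CPM + 1) of 6 dentate granule cell genes, was 6.25 ± 0.53 (SD, n = 15) in vehicle dCA1 and 5.90 ± 1.02 (SD, n = 15) in vehicle dDG, so dCA1 libraries held as much dentate signal as dDG libraries. In vCA1 it was 0.92 higher after dexamethasone than after vehicle. Results for CER, dCA1 and vCA1 belong to tissue so labelled, and the dentate level was added to the fit as an alternative for the CA1 and DG punches.

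The design asks first which transcripts changed after dexamethasone. Across the 7 genes and 8 regions, 55 tests could be made, since Pros1 was too low for the filter in dCA1. At a threshold of 0.05 on the edgeR p-value, adjusted over all genes of a region, 9 of the 55 passed, against 5.17% of all 71817 tests of genes in regions. Of the 9, 7 were Mertk, which was higher after dexamethasone, and 2 were Tyro3, which was lower. By region, AMY had 2 of 7 members past the threshold (5.62% of all genes there), CER 2 of 7 (6.18%), PFC 0 of 7 (6.14%), PVN 1 of 7 (5.63%), dCA1 1 of 6 (4.68%), dDG 1 of 7 (3.7%), vCA1 1 of 7 (5.45%) and vDG 1 of 7 (3.93%). In PFC, 2 members had an unadjusted p under 0.05, Mertk and Tyro3, and DESeq2 called 0 there. The median log2 fold change over the members lay between -0.28 in dDG and 0.18 in dCA1, and that over all genes between -0.02 and 0.00. The 3 TAM receptors thus had values of different sign in the same tissue, with Mertk above 0 and Tyro3 below 0 in 8 of 8 regions and Axl below 0 in 5.

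**Figure D1:**
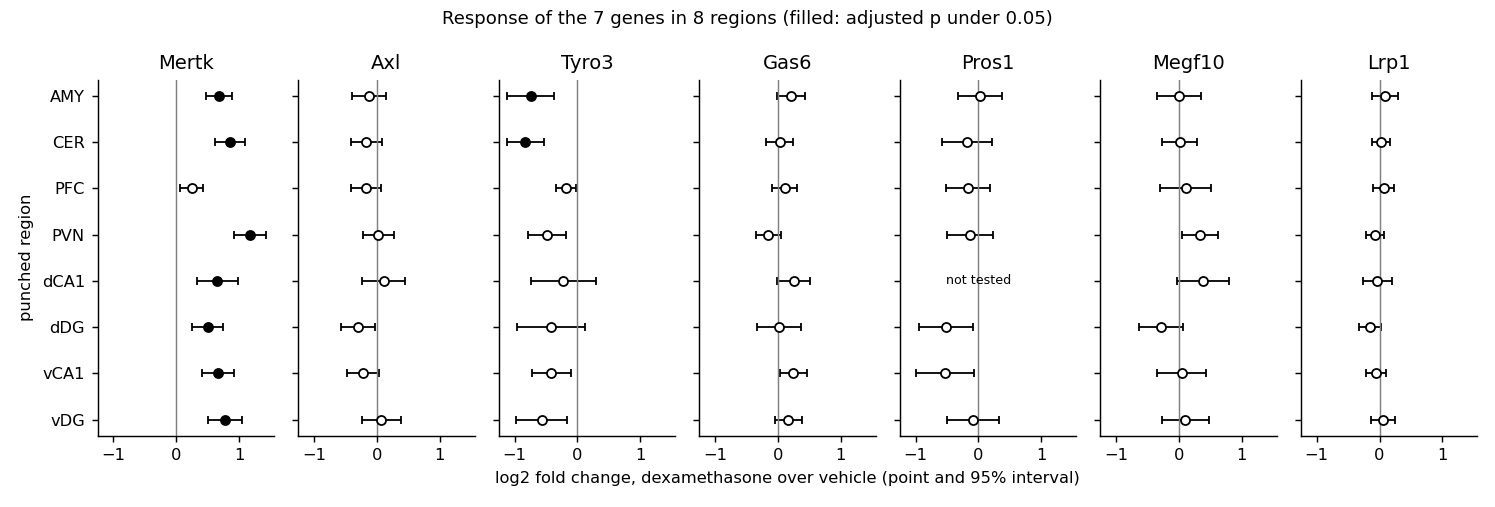
Log2 fold change of dexamethasone over vehicle with its 95% interval (x axis) for each of the 7 genes (panels) in each punched region (y axis). Filled points have an adjusted p under 0.05 in edgeR's quasi-likelihood test; 7 of 8 Mertk points and 2 of 8 Tyro3 points are filled, and 0 of the other 39.

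Mertk, the TAM receptor best known for clearance of dying cells, was higher after dexamethasone in every region but PFC by this test, with log2 fold changes from 0.50 in dDG to 1.18 in PVN. Only 1.27% of the 7924 genes tested in all 8 regions were higher in at least 7 of them.

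In PVN, Mertk ran from 29.0 to 78.1 CPM with a median of 48.6 in vehicle and from 94.5 to 155 CPM with a median of 111 in dexamethasone libraries. The arms did not overlap, and all 15 dexamethasone libraries lay above the highest vehicle library. Its log2 fold change was 1.18 ± 0.13 (SE, adjusted p 1.71e-09), or 2.26-fold. In CER, vehicle libraries ran from 30.0 to 93.3 CPM with a median of 52.4 and dexamethasone libraries from 78.3 to 119 CPM with a median of 100.3. Of the 15 dexamethasone libraries, 9 were above the highest vehicle library and 15 above the vehicle median. This was a log2 difference of 0.86 ± 0.12 (SE, adjusted p 4.44e-07). In AMY, the range was 50.5 to 116 CPM with a median of 83.4 in vehicle and 102 to 159.6 CPM with a median of 136 after dexamethasone. Here 13 of 15 dexamethasone libraries exceeded every vehicle library. Mertk differed by 0.69 ± 0.10 on the log2 scale (SE, adjusted p 4.32e-06).

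vDG and vCA1 lay near AMY in the size of the difference. In vDG, Mertk ran from 64.6 to 139 CPM with a median of 75.2 in vehicle libraries and from 103 to 251 CPM with a median of 149 in dexamethasone libraries, and 9 of 15 dexamethasone libraries were above the highest vehicle library. Mertk differed by 0.77 ± 0.13 on the log2 scale (SE, adjusted p 9.78e-05), and by 0.75 without the vDG libraries that held cerebellar counts (adjusted p 0.000511). In vCA1, the vehicle range was 66.1 to 140.0 CPM with a median of 90.4 and the dexamethasone range 97.0 to 293 CPM with a median of 149. The arms overlapped there, with 9 of 15 dexamethasone libraries above all vehicle libraries. Mertk differed there by 0.66 ± 0.13 on the log2 scale (SE, adjusted p 2.86e-04), and by 0.69 with the dentate level as a covariate (adjusted p 0.00358). Without the vCA1 library that held cerebellar counts it was 0.65 (adjusted p 0.000523).

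In dCA1 and dDG the arms overlapped more. Mertk in dCA1 ran from 31.9 to 139 CPM with a median of 79.9 in vehicle and from 92.6 to 223 CPM with a median of 122 in dexamethasone libraries, with 5 of 13 dexamethasone libraries above the highest vehicle library and 13 above the vehicle median. Its log2 fold change there was 0.65 ± 0.16 (SE, adjusted p 0.00945), and 0.43 with the dentate level as a covariate (adjusted p 0.0293). In dDG, vehicle libraries ran from 56.3 to 109 CPM with a median of 72.5 and dexamethasone libraries from 70.1 to 182 CPM with a median of 94.9. Of 15 dexamethasone libraries, 6 lay above every vehicle library and 14 above the vehicle median. The log2 difference was 0.50 ± 0.12 (SE, adjusted p 0.00832). Without libraries of RNA integrity (RIN) below 5 it was 0.37 and no longer passed.

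PFC was the exception. Vehicle libraries ran from 84.5 to 159 CPM with a median of 98.7 and dexamethasone libraries from 94.0 to 148 CPM with a median of 131, and 0 of 14 dexamethasone libraries exceeded the highest vehicle library, while 13 of 14 exceeded the vehicle median. The log2 fold change of 0.24 ± 0.09 (SE, unadjusted p 0.0104, adjusted p 0.121) did not pass, and its 95% interval ran from 0.06 to 0.43. It passed in 5 of the 30 alternatives run for PFC: without the libraries of replicate number 1 (0.28), with date and plate (0.27), with surrogate variables (0.29), and with the astrocyte level (0.37), also without Sox9 (0.30). Without the PFC library that held cerebellar counts it was 0.24 (adjusted p 0.146). Of the 5 punching dates, date 2 left fewer than 2 libraries in an arm of each region. Within the 4 library plates and the other 4 dates taken one at a time, the difference of Mertk was above 0 in 32 of 32 combinations of plate and region (0.01 to 1.38) and in 32 of 32 of date and region (0.13 to 1.17).

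**Figure D2:**
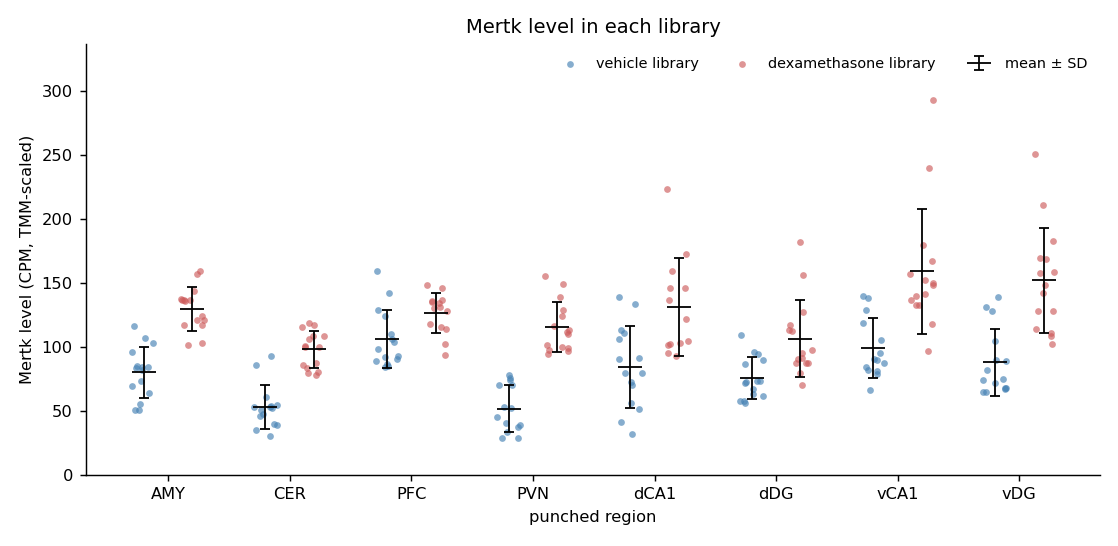
Mertk level (y axis, TMM-scaled CPM, from 0) in each library of the 8 punched regions (x axis), with vehicle in blue, dexamethasone in red and the mean ± SD in black. The arms are apart in PVN, where the highest vehicle library is at 78.1 and the lowest dexamethasone library at 94.5 CPM, and overlap in PFC.

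The next question was whether the Mertk response differed between regions. In a single edgeR fit over the libraries of all regions, the 7 region-by-arm terms of Mertk had an adjusted p of 0.0285 (F = 4.13), a call that 1.17% of 11053 genes shared. Its adjusted p was 0.0042 to 0.0311 in the 8 alternatives that kept all 8 regions, the highest without the libraries that held cerebellar counts. With all regions the unadjusted p was 0.000268. Without CER it was 0.000371 (F = 4.35) and the adjusted p 0.0555, and without PVN it was 0.0219 (F = 2.53) and the adjusted p 0.542. The other 6 members did not pass (adjusted p of 1.00 after rounding for each, with an unadjusted p of 0.192 or more). Each region was then set against the mean of the other 7, and 0 of 56 tests of members passed with edgeR, while 4 had an unadjusted p under 0.05. Over all genes 0.141% of such tests passed. Those calls were made for 0.235% of genes in PFC and 0.163% in PVN. The response of Mertk differed from that mean by -0.51 ± 0.14 in PFC (SE, adjusted p 0.0659) and by 0.55 ± 0.15 in PVN (SE, adjusted p 0.0839), and neither passed with edgeR. Both passed with limma-voom with the animal as a random block (adjusted p 0.0344 in PFC and 0.0354 in PVN), and with the replicate number as a block in edgeR (-0.52, adjusted p 0.0235, and 0.55, adjusted p 0.0374).

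Mertk levels of the vehicle animals followed another order. In vehicle libraries the mean was 106 ± 22.7 CPM in PFC (SD, n = 15), 99.2 ± 23.5 CPM in vCA1 (SD, n = 14), 87.9 ± 25.9 CPM in vDG (SD, n = 15) and 84.6 ± 32.0 CPM in dCA1 (SD, n = 15). It was 80.3 ± 20.0 CPM in AMY (SD, n = 15), 75.5 ± 16.3 CPM in dDG (SD, n = 15), 53.0 ± 17.1 CPM in CER (SD, n = 15) and 51.8 ± 18.3 CPM in PVN (SD, n = 14). The highest mean was thus 2.05 times the lowest. With the animal as a block in edgeR, the level differed among regions (adjusted p 3.55e-16), as it did for 73.3% of 10451 genes. Among neighbours in this order, only dDG and CER differed (log2 difference 0.54 ± 0.13, SE, adjusted p 0.000183), and CER and PVN did not (adjusted p 0.85). Farther apart in the order, PFC stood above vDG (adjusted p 0.0253), dCA1 (0.00419), AMY (0.00118) and dDG (0.000236), and vCA1 above AMY (0.0217) and dDG (0.00735). The remaining pairs among the upper 6 regions did not pass. After dexamethasone the means ran from 98.1 ± 14.5 CPM in CER (SD, n = 15) to 159 ± 48.9 CPM in vCA1 (SD, n = 15). PVN and CER, lowest in vehicle, had the largest fold changes, and PFC, highest in vehicle, had the smallest. Those quantities share the vehicle libraries, and no correlation between them is given.

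Tyro3, the TAM receptor of neurons, was below vehicle on average in all 8 regions and passed the threshold in AMY and CER. Among genes tested in all 8 regions, 2.7% were lower in at least 2. In CER, Tyro3 ran from 30.3 to 104 CPM with a median of 52.1 in vehicle and from 19.6 to 59.0 CPM with a median of 32.3 in dexamethasone libraries. Of the 15 dexamethasone libraries, 7 were below the lowest vehicle library and 14 below the vehicle median. Its log2 fold change was -0.83 ± 0.15 (SE, adjusted p 5.55e-05), a 0.562-fold level. In AMY, vehicle libraries ran from 35.2 to 137 CPM with a median of 82.0 and dexamethasone libraries from 21.6 to 82.6 CPM with a median of 47.4. The arms overlapped, with 6 of 15 dexamethasone libraries below every vehicle library. The log2 difference was -0.74 ± 0.19 (SE, adjusted p 0.0083).

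PVN lay just outside the threshold. Tyro3 there ran from 26.3 to 60.3 CPM with a median of 37.0 in vehicle and from 10.5 to 74.0 CPM with a median of 27.2 in dexamethasone libraries, so 1 dexamethasone library was the highest of all while 7 of 15 lay below every vehicle library. The log2 fold change was -0.48 ± 0.15 (SE, adjusted p 0.0505), and DESeq2 called it (adjusted p 0.0448). With the replicate number as a block it also passed (edgeR, -0.51, adjusted p 0.0471). In vDG, the vehicle range was 29.8 to 115 CPM with a median of 69.6 and the dexamethasone range 17.4 to 79.5 CPM with a median of 50.7. The arms overlapped over most of their range, and the log2 fold change was -0.57 ± 0.20 (SE, adjusted p 0.128). Without the vDG libraries that held cerebellar counts it was -0.45 (adjusted p 0.327). Without replicate number 13 it passed in vDG (-0.69) and in PVN (-0.56), which made 4 regions.

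In vCA1, dCA1 and dDG Tyro3 did not pass. In vCA1 it ran from 67.6 to 162 CPM with a median of 79.7 in vehicle and from 29.6 to 110.0 CPM with a median of 64.9 in dexamethasone libraries, with 8 of 15 dexamethasone libraries below every vehicle library. The log2 fold change was -0.41 ± 0.15 (SE, adjusted p 0.113). Once the dentate level was in the fit it was -0.11 (adjusted p 0.927), beside the 0.92 higher dentate level of the vCA1 dexamethasone libraries. With the astrocyte level in the fit it was -0.53 and passed (adjusted p 0.0210), as it did with that level taken without Sox9 (-0.47, adjusted p 0.0378). In dCA1 the ranges were 10.4 to 66.4 CPM with a median of 29.0 for vehicle and 12.1 to 62.5 CPM with a median of 19.3 for dexamethasone. They covered nearly the same levels, and Tyro3 differed by -0.23 ± 0.26 on the log2 scale (SE, adjusted p 0.836), which became -0.62 (adjusted p 0.0605) with the dentate covariate. With the astrocyte level it was -0.012 (adjusted p 0.993), with that level taken without Sox9 -0.16 (adjusted p 0.823), and without replicate number 5 -0.036. In dDG, Tyro3 ran from 8.15 to 72.7 CPM with a median of 34.5 in vehicle and from 6.51 to 66.0 CPM with a median of 26.5 after dexamethasone, a log2 difference of -0.42 ± 0.27 (SE, adjusted p 0.593). The astrocyte level as a covariate gave -0.14 there (adjusted p 0.942), and -0.25 when taken without Sox9 (adjusted p 0.838). The Tyro3 values of dCA1 and vCA1 thus depended on whether the dentate level was in the fit. With that level, 3 of the 4 CA1 and DG regions had an unadjusted p under 0.05 for Tyro3 (edgeR), and 0 passed.

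PFC had the highest Tyro3 level of all regions and a small difference. Vehicle libraries ran from 109 to 159 CPM with a median of 129 and dexamethasone libraries from 83.1 to 142 CPM with a median of 114, and 12 of 14 dexamethasone libraries lay below the vehicle median. The log2 fold change was -0.18 ± 0.08 (SE, adjusted p 0.219), with a 95% interval from -0.34 to -0.02. Whether the Tyro3 response differed among the 8 regions was tested and did not pass (unadjusted p 0.192). Within single plates the Tyro3 difference was below 0 in 30 of 32 combinations of plate and region, and within single dates in 29 of 32.

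**Figure D3:**
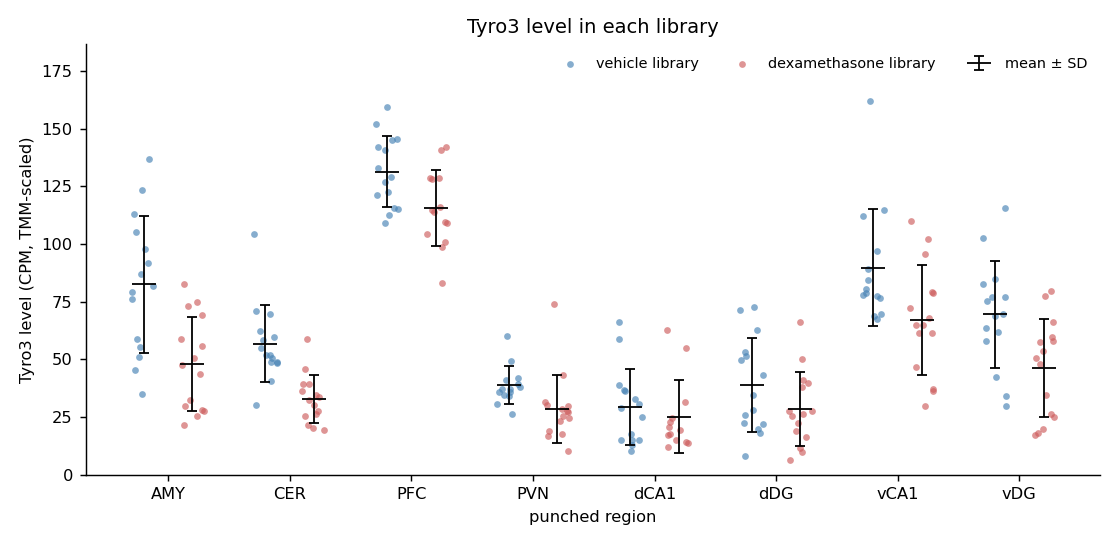
Tyro3 level (y axis, TMM-scaled CPM, from 0) in each library of the 8 punched regions (x axis), with vehicle in blue, dexamethasone in red and the mean ± SD in black. PFC is highest in both arms, and in AMY and CER the dexamethasone mean lies at 0.583 and 0.578 of the vehicle mean.

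The vehicle level of Tyro3 differed more between regions than that of any other member, 4.46-fold between the highest and the lowest mean. It was 131 ± 15.5 CPM in PFC (SD, n = 15), 89.7 ± 25.5 CPM in vCA1 (SD, n = 14) and 82.5 ± 29.7 CPM in AMY (SD, n = 15). Lower down it was 69.5 ± 23.2 CPM in vDG (SD, n = 15), 56.8 ± 16.7 CPM in CER (SD, n = 15) and 38.9 ± 20.5 CPM in dDG (SD, n = 15). PVN had 38.7 ± 8.22 CPM (SD, n = 14) and dCA1 29.4 ± 16.6 CPM (SD, n = 15). PFC stood above its neighbour vCA1 (log2 difference 0.57 ± 0.16, SE, adjusted p 0.00491) and CER above dDG (0.60 ± 0.19, SE, adjusted p 0.00507), and the other 5 neighbouring pairs did not differ by the test. Over all 28 pairs of regions, 21 differed for Tyro3 and 18 for Mertk, against 31.4% of such tests over all genes.

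Axl, the TAM receptor with Gas6 as its only ligand, ran from 16.1 to 130.2 CPM over all libraries, with a median of 45.5. It passed in 0 of 8 regions with edgeR and in 0 with DESeq2, as 86.3% of genes tested in all 8 did with edgeR, and had an unadjusted p under 0.05 in dDG alone, where it was 44.5 ± 7.92 CPM in vehicle (SD, n = 15) and 36.4 ± 10.8 CPM after dexamethasone (SD, n = 15), a log2 difference of -0.30 ± 0.13 (SE, adjusted p 0.289). Its values ran up to 0.11 in dCA1. With the astrocyte level as a covariate the Axl values ran from -0.10 to 0.31, the latter in dCA1, and were above 0 in 4 of 8 regions. With that level taken without Sox9 they ran from -0.18 to 0.18. Axl passed in 0 of 8 regions in either fit. In vehicle libraries its means lay between 44.5 and 55.3 CPM, and 0 of 28 pairs of regions differed. The edgeR test over the 8 regions did not pass for Axl in vehicle libraries (adjusted p 0.404), but did with the astrocyte level as a covariate (adjusted p 0.00224) and in dexamethasone libraries (adjusted p 0.00954).

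Gas6, the ligand of all 3 TAM receptors, ran from 27.0 to 152 CPM with a median of 56.7. It passed in 0 of 8 regions with edgeR and with DESeq2. Its log2 fold change was above 0 in 7 of 8 regions, with the largest value in dCA1 (0.25 ± 0.13, SE, adjusted p 0.422) and the only unadjusted p under 0.05 in vCA1 (0.24 ± 0.10, SE, adjusted p 0.21). Once the dentate level was in the fit, the vCA1 value was 0.39 and passed (edgeR, adjusted p 0.0475). In vCA1, Gas6 ran from 40.8 to 68.7 CPM with a median of 53.0 in vehicle and from 47.4 to 86.0 CPM with a median of 66.3 in dexamethasone libraries, so the arms overlapped. CER had the highest vehicle level, 87.5 ± 18.8 CPM (SD, n = 15), above its neighbour vDG at 66.0 ± 16.4 CPM (SD, n = 15; log2 difference 0.42 ± 0.11, SE, adjusted p 0.00103). Over the remaining neighbours in the order, down to dCA1 at 43.7 ± 12.0 CPM (SD, n = 15), 0 of 6 differed.

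Pros1, which encodes protein S, had the fewest counts, at 0 to 36.2 CPM with a median of 15.8 and with 1 library at 0. It was tested in 7 regions and passed in 0 with edgeR and in 0 with DESeq2. An unadjusted p under 0.05 was found in dDG (-0.52 ± 0.21, SE, adjusted p 0.223) and vCA1 (-0.54 ± 0.23, SE, adjusted p 0.212). In vCA1 it ran from 6.25 to 29.0 CPM with a median of 19.3 in vehicle and from 3.70 to 26.7 CPM with a median of 9.83 in dexamethasone libraries, with broad overlap. The vCA1 value passed in 4 of 30 alternatives. These were the 228 libraries of the authors' own tables (-0.83), the fit without replicate number 4 (-0.71), surrogate variables, and the authors' variance-stabilised values. Vehicle means lay between 15.3 and 21.2 CPM, and 0 of 28 pairs of regions differed. The edgeR test over the 8 regions had an adjusted p of 0.505 for Pros1 in vehicle and passed in dexamethasone libraries (adjusted p 0.0119).

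Megf10, the astrocyte receptor, ran from 4.15 to 47.7 CPM with a median of 19.1. It passed in 0 of 8 regions with edgeR and with DESeq2. Its only unadjusted p under 0.05 was in PVN, where it ran from 7.82 to 23.7 CPM with a median of 16.1 in vehicle and from 10.6 to 30.1 CPM with a median of 21.0 in dexamethasone libraries (0.33 ± 0.14, SE, adjusted p 0.221). Values above 0 in PVN and dCA1 (0.38) stood beside one below 0 in dDG (-0.28). With the astrocyte level as a covariate the dDG value was -0.039 and the dCA1 value 0.54. With that level taken without Sox9 they were -0.15 and 0.42. Megf10 passed in 0 of 8 regions in either fit. In vehicle libraries Megf10 was highest in AMY (27.8 ± 9.36 CPM, SD, n = 15) and CER (26.8 ± 6.74 CPM, SD, n = 15), and CER stood above dDG by 0.41 ± 0.18 (SE, adjusted p 0.0499). PFC was lowest, at 12.9 ± 5.90 CPM (SD, n = 15).

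Lrp1, the endocytic receptor, had the most counts of the 7, with 91.1 to 256 CPM per library and a median of 152. It passed in 0 of 8 regions with edgeR and DESeq2, and in 0 had an unadjusted p under 0.05. Its log2 fold changes lay between -0.16 in dDG and 0.09 in AMY. The 95% interval for CER ran from -0.13 to 0.17 and that for PVN from -0.21 to 0.07, so at this depth a change of Lrp1 as large as that of Mertk in those regions lies outside its interval. Vehicle means lay between 133 ± 17.5 CPM in PFC (SD, n = 15) and 187 ± 24.0 CPM in PVN (SD, n = 14), and 11 of 28 pairs of regions differed but 0 of 7 neighbouring pairs.

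Since each mouse gave up to 8 punches, the response was also taken with 1 value per animal, the mean over its regions of log2 CPM minus the region mean. Over the 15 vehicle animals Mertk ran from -0.72 to 0.11 with a median of -0.36, and over the 15 dexamethasone animals from 0.18 to 0.56 with a median of 0.35. All 15 treated animals lay above the highest vehicle animal. With limma the difference was 0.70 ± 0.07 (SE, adjusted p 2.27e-10), among 18.8% of 7924 genes called. Tyro3 ran from -0.01 to 0.57 in vehicle animals and from -0.62 to 0.08 in treated animals, and 11 of 15 treated animals were below the lowest vehicle animal. The difference was -0.49 ± 0.08 (SE, adjusted p 3.63e-06). Tyro3 therefore passed over animals although single regions other than AMY and CER did not.

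Axl differed by -0.11 ± 0.04 on this scale (SE, unadjusted p 0.0171, adjusted p 0.0799), and 11 of 15 treated animals lay below the vehicle median. It did not pass, but did without replicate number 7 (-0.12) or 15 (-0.13). Gas6 differed by 0.09 ± 0.04 (SE, adjusted p 0.159), Megf10 by 0.06 ± 0.06 (SE, adjusted p 0.583) and Lrp1 by -0.01 ± 0.04 (SE, adjusted p 0.935). For Lrp1 the 95% interval was -0.09 to 0.07.

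**Figure D4:**
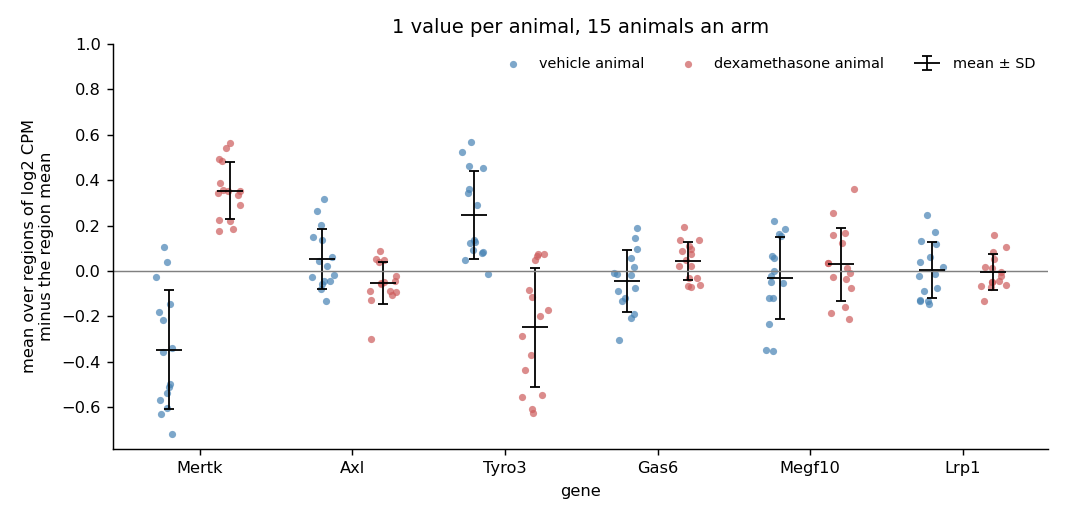
One point per animal for the 6 genes tested in all 8 regions (x axis), as the mean over its regions of log2 CPM minus the region mean (y axis), with vehicle in blue, dexamethasone in red and the mean ± SD in black. All 15 dexamethasone animals lie above the vehicle animals for Mertk, and 11 of 15 lie below them for Tyro3.

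Markers of the cells that carry these receptors were compared between arms. Of 10 astrocyte markers, tested 80 times over the regions, 1 test passed as higher and 9 as lower after dexamethasone, and 8 of the 9 were Sox9, an astrocyte transcription factor, in all 8 regions (-1.20 to -0.67). Sox9 and P2ry12 are named after their values were seen. The summed level of the 10 astrocyte markers had medians of 5779 to 8111 CPM over the vehicle groups and 5683 to 7852 CPM over the dexamethasone groups. The mean astrocyte level on the log2 scale differed by -0.26 to -0.10 between dexamethasone and vehicle. That level includes Sox9, and without Sox9 it differed by -0.15 to -0.0089. With the level as a covariate, Mertk passed in 8 of 8 regions (0.37 to 1.20), and so it did with the level without Sox9 (0.30 to 1.18). Of 8 microglial markers, 9 of 40 tests passed as lower and 0 as higher, and 8 of the 9 were P2ry12, a purine receptor of resting microglia (-1.17 to -0.70). The summed microglial level had group medians of 292 to 577 CPM in vehicle and 263 to 476 CPM after dexamethasone. On the log2 scale the mean microglial level was lower after dexamethasone in 8 of 8 regions, by a difference of -0.43 to -0.33, and of -0.38 to -0.24 without P2ry12. The low counts of border macrophage markers allowed 0 tests, with sums of 0 to 55.6 CPM in vehicle and 0 to 83.7 CPM in dexamethasone libraries. For Tyro3, the 6 neuronal markers passed in 0 of 48 tests. Endothelial markers passed as lower in 11 of 32 tests and as higher in 0, against 5.17% of all tests. In each region 1 or 2 of the 4 tested were lower. Over animals with limma, Kdr differed by -1.45 (adjusted p 3.24e-17), Egfl7 by -0.32 (3.25e-05) and Pecam1 by -0.17 (0.0265). Esam went the other way and did not pass (0.12, adjusted p 0.15). The part of microglia, macrophages or vessels in these results was not tested.

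Across all libraries of the 8 regions, after each region and arm was set to its own mean, the members varied with several sets of cell markers. These correlations share library depth and dissection, and are descriptions. With the astrocyte level, Pearson's r was 0.64 for Axl, 0.58 for Lrp1, 0.49 for Megf10, 0.46 for Mertk, 0.31 for Pros1, 0.14 for Gas6 and 0.03 for Tyro3. With the microglial level it was 0.38 for Axl, 0.36 for Mertk, 0.33 for Megf10, 0.32 for Lrp1, 0.28 for Pros1 and 0.13 for both Gas6 and Tyro3. With markers of oligodendrocyte precursors it was 0.46 for Axl, 0.42 for Lrp1, 0.33 for Megf10, 0.31 for Mertk, 0.26 for Tyro3, 0.24 for Gas6 and 0.028 for Pros1. Axl also went with mural cell markers at 0.39 and oligodendrocyte markers at 0.36. For Tyro3 the neuronal markers (0.24) and the oligodendrocyte markers (0.19) came after those of the precursors, and the dentate level stood at -0.40. All 7 members went against the dentate level (-0.40 to -0.13). Gas6 had its highest r with choroid plexus markers, 0.41. The sum of those markers was uneven, with a median in dDG of 1280 CPM in vehicle and 286 CPM after dexamethasone. Single dDG libraries reached 11579 CPM in vehicle and 13295 CPM after dexamethasone, and vCA1 libraries 1466 and 98.4 CPM. The bearing of choroid plexus signal on the Gas6 levels and responses was not tested. Among the members, Axl and Lrp1 were closest (0.54), followed by Axl and Mertk (0.39) and Mertk and Lrp1 (0.35), and Mertk and Tyro3 had an r of 0.13.

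On the same centred values, the genes most like each member were drawn from those tested in all 8 regions. For Mertk they were Mt2 (0.60), Fam107a (0.57) and Htra1 (0.57). For Tyro3 they were Prkcb (0.64) and Caln1 (0.59), and for Axl Cst3 (0.69), Gstm1 (0.68) and Bcan (0.67). Lrp1 was closest to Nacc2 (0.64), Bcan (0.60) and Sdc4 (0.59). Gas6 was closest to Steap2 (0.55), Enpp2 (0.55) and Slc12a2 (0.47). Pros1 had Mgst1 (0.47), Snx5 (0.46) and Sparcl1 (0.46), and Megf10 had Ndrg2 (0.49), Gna13 (0.49) and S100b (0.49). Over the 8 vehicle region means, the genes most like Mertk were Fjx1 (0.98), Stk19 (0.97) and Junb (0.97), over only 8 points.

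The rest of the engulfment pathway was read from 4 lists of 51 genes. Of these, 34 were tested in at least 1 region, giving 258 tests, of which 12 passed as higher and 9 as lower, against 5.17% of all tests. The engulfment machinery, which carries the signal inside the cell, gave 11 higher and 2 lower of 76 tests. Other receptors gave 1 higher and 4 lower of 77, the restraint and shedding genes 0 higher and 3 lower of 40, and the bridging molecules and opsonins 0 of 65. Of the 65, 10 had an unadjusted p under 0.05, including 6 of the 8 in dDG. Median log2 fold changes over a list and region lay between -0.22 and 0.06, and those over all genes between -0.02 and 0.00.

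Abca1, a cholesterol and phospholipid exporter related to a worm engulfment gene, was the gene of the machinery list past the threshold in 8 of 8 regions. In PVN it ran from 37.8 to 62.0 CPM with a median of 49.6 in vehicle and from 72.0 to 122 CPM with a median of 115 in dexamethasone libraries, with no overlap of the arms. Its log2 fold change there was 1.12 ± 0.09 (SE, adjusted p 1.71e-13). In PFC, where Mertk did not pass, Abca1 ran from 14.4 to 51.5 CPM with a median of 32.9 in vehicle and from 44.2 to 94.1 CPM with a median of 70.2 after dexamethasone. The log2 fold change was 1.07 ± 0.12 (SE, adjusted p 1.41e-09). Its smallest value was in dDG, at 0.51 ± 0.12 (SE, adjusted p 0.00623).

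Sirpa, the receptor for the "do not eat me" signal Cd47, was the restraint gene with the most calls. It was lower in AMY (-0.30 ± 0.08, SE, adjusted p 0.0147), PVN (-0.38 ± 0.09, SE, adjusted p 0.00395) and vCA1 (-0.27 ± 0.07, SE, adjusted p 0.0228), and below 0 in all 8 regions. With the replicate number as a block in edgeR, Sirpa no longer passed in vCA1 (-0.27, adjusted p 0.0569) and passed in PFC (-0.21, adjusted p 0.0315). Cd47 itself passed in 0 of 8 regions (-0.12 to 0.02). The metalloproteases Adam10 and Adam17, which cut Mertk from the cell surface, also passed in 0 of 8, with values of -0.24 to 0.12 and -0.28 to 0.20. Among the other receptors, Vldlr, a lipoprotein and reelin receptor, was lower in CER (-0.41 ± 0.09, SE, adjusted p 0.00106) and dCA1 (-0.34 ± 0.09, SE, adjusted p 0.0206), and Itgam, a subunit of complement receptor 3, in vDG (-0.71 ± 0.18, SE, adjusted p 0.0116). Some further calls are named after their values were seen: Elmo2 was higher in PFC and vCA1 and Elmo1 in PFC, and Dock1 was lower in vCA1, Ptk2 in dCA1 and Tyrobp in PFC. With the replicate block Dock1 no longer passed in vCA1 (-0.40, adjusted p 0.0772), while Elmo2 (0.32, adjusted p 0.0209) and the opsonin gene C1qc (-0.47, adjusted p 0.0218) passed in dDG. Apoe, a ligand of Lrp1, passed in 0 of 8 regions (-0.23 to 0.07), as did Anxa5, a phosphatidylserine-binding protein (-0.18 to 0.12). The same held for the eat-me opsonins C1qa (-0.30 to 0.01), C1qb (-0.15 to 0.14) and C1qc (-0.50 to -0.18). It also held for Mfge8, a phosphatidylserine bridge to integrins (-0.37 to 0.08). Over animals with limma, however, C1qc was lower (-0.28 ± 0.04, SE, adjusted p 1.03e-06). Sirpa (-0.24), Vldlr (-0.22), Itgam (-0.35) and Ptk2 (-0.18) also passed there as lower. Abca1 (0.83), Elmo2 (0.27) and Elmo1 (0.17) passed as higher, among 18.8% of all genes called. C1qa, C1qb, Mfge8, Apoe, Anxa5, Dock1, Cd47, Adam10 and Adam17 did not pass over animals.

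**Figure D5:**
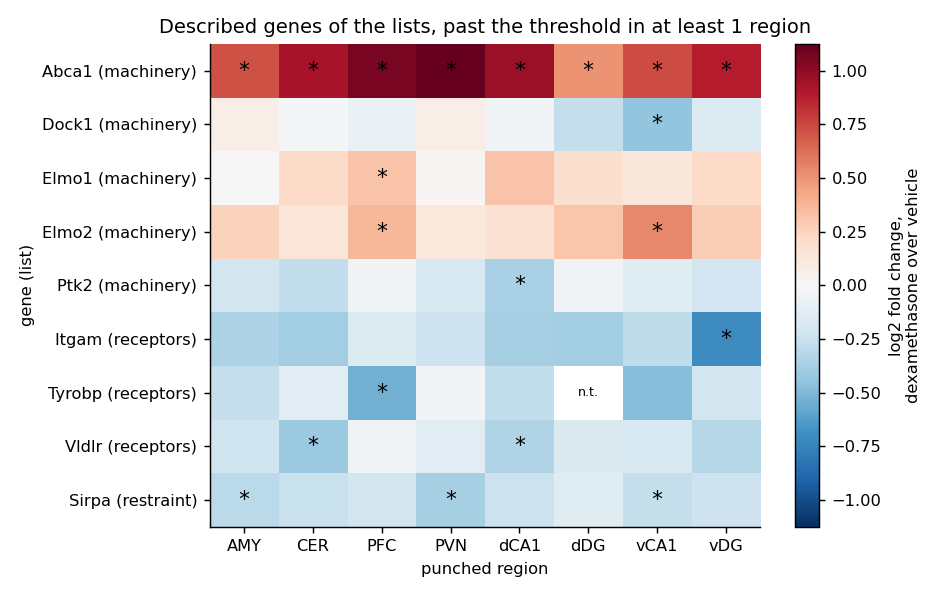
Log2 fold change of dexamethasone over vehicle (colour) in each punched region (x axis) for the described genes of the 4 lists past the threshold in at least 1 region (y axis, list in brackets; n.t., not tested). Asterisks mark an adjusted p under 0.05 in edgeR; Abca1 carries 8 and Sirpa 3.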

How the data were processed

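The deposited table holds raw counts per gene, made by the authors from QuantSeq 3' end libraries with unique molecular identifiers. Per the submitters' processing notes, mm10, FastQC 0.11.4, cutadapt, UMI-tools 0.5.4, STAR 2.6.0a, featureCounts 1.6.4, DESeq2 1.30.1 and R 4.0.5 were used; whether counting used strand is not given in the sources used here. The authors also deposited log2-scale variance-stabilised values of 228 libraries, used as an alternative only. Symbols of 27645 genes came from GENCODE M21. Arms were compared per region with edgeR 4.0.16 (R 4.3.3; filterByExpr, TMM factors, quasi-likelihood test, Benjamini-Hochberg over all genes tested, threshold 0.05), and animals with limma 3.58.1 (prior count 2). DESeq2 1.42.0 and sva 3.50.0 served as alternatives. Scripts were tested on simulated data. Members and lists were chosen with earlier results of these data known. From each related list, genes past the threshold in at least 4 of 8 regions were named, or else the 2 with the most calls. For each member the 3 most correlated genes were named, and a few results that these rules cover are not reported here. Replicate numbers follow the batches, per the labels: same-numbered libraries of both arms shared the library plate in 115 of 115 pairs and the punching date in 109 of 115, so the number was also fitted as a block. Columns of samples outside the labels numbered 0.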

Additional observations from a re-analysis of the deposited data

Results flagged for a closer look

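The dexamethasone response of Mertk differed among the 8 regions by the test of the difference itself (edgeR, adjusted p 0.0285). Its log2 fold change ran from 0.24 in PFC to 1.18 in PVN and was above 0 in 8 of 8 regions. Without PVN the adjusted p was 0.542 (unadjusted 0.0219), and without CER it was 0.0555 (unadjusted 0.000371, against 0.000268 with all regions).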

How the results depend on the processing

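With surrogate variables the members past the threshold rose from 9 to 15, the related genes from 21 to 34 and the regions with a Tyro3 call from 2 to 5. With at least 10 counts in every library Tyro3 could be tested in 3 regions and had 1. Leaving out 1 replicate number at a time gave 9 to 11 member calls, 18 to 26 related calls, 7 to 8 regions for Mertk, 2 to 4 for Tyro3 (4 without replicate 13) and 2 to 3 members over animals. Members whose response differed among regions fell from 1 to 0 without CER and to 0 without PVN. Tests of 1 region against the mean of the others that passed went from 0 to 2 with limma-voom and the animal as a random block, 2 with a replicate block and 2 with the astrocyte level without Sox9, each time Mertk in PFC and in PVN. They went to 1 with RIN, date and plate and 1 with the astrocyte level (Mertk in PFC), 1 with the libraries of the authors' tables and 1 of 49 without CER (Mertk in PVN), and 2 at a threshold of 0.1. The threshold of 0.1 is looser by construction, and leaving out a region removes its libraries. For the other settings the cause was not tested. The replicate block gave 10 member calls, 24 related calls and 3 Tyro3 regions, and beyond the blocked values in the text it changed no other call of a gene named here. Of the values of single members under alternatives, 1731 kept their side of the threshold, 64 of them with another sign, 28 newly passed and 1 was lost, Mertk in dDG at a RIN of at least 5 (0.37). Alternatives without CER or PVN, without libraries that held cerebellar counts, with the astrocyte level without Sox9, at a RIN of at least 5 and with the libraries of the authors' tables were chosen after seeing the data. Counts per library, lowest for Pros1 and Megf10, limit what could be detected for those genes.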
